A study of Rattus norvegicus with 9 samples.

Results

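Serum response factor (SRF), its ternary complex factors Elk1, Elk3 and Elk4 and its coactivators Mkl1, Mkl2 and Myocd were followed in rat superior mesenteric artery (SMA) after ischemia. The members were picked by gene symbol, and all 7 listed symbols were present among the 37203 symbols of the count table. All 7 passed the filter on low counts, as members of the 15482 genes tested. The list was proposed with results of these data known, so it is not an independent choice. RNA was sequenced from the SMA of 9 SD rats that were 8 weeks old and weighed 220 to 240 g, with 3 rats in each of 3 groups. The groups were normal artery, artery after 1 h of ischemia and artery after 4 h of ischemia. The labels give no strain, transgene or drug that differs between the groups, and the study's methods describe the ischemia as blood loss from a catheter in the femoral artery under pentobarbital, which affects the whole animal and not the artery alone. The comparison of each time with normal artery addresses how vascular transcripts change in the early and the later phase of ischemia. Each library is 1 artery segment with all its cell types, so fewer cells of a type and less RNA per cell cannot be told apart.

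SRF is a MADS-box transcription factor that binds CArG boxes and by itself activates little. Ternary complex factors of the ETS family (Elk1, Elk3, Elk4) dock onto SRF at early response genes and are switched on through phosphorylation by ERK and related kinases, whereas the myocardin family (Myocd, and the actin-regulated Mkl1 and Mkl2, also called MRTF-A and MRTF-B) carries SRF to contractile and cytoskeletal genes. Both kinds of partner contact overlapping surfaces of SRF, and in smooth muscle their balance is known to set the choice between an immediate early response and the contractile programme.

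The upstream sequence of Srf itself and the CArG boxes of 4 of its targets are shown because the CArG box is the motif that SRF is known for and these genes are described below. The sequences are from RefSeq on GRCr8, 5′ to 3′ on the strand of the gene, with the CArG boxes in capitals. The build used for the counts is not given in the sources used here. For Srf (chr9:21923826-21924075, plus strand) and Egr1 (chr18:26736828-26737077, plus strand), the 250 bases before the transcription start are shown. For Egr2 (chr20:21054505-21054534, minus strand), Zfp36 (chr1:92799121-92799150, minus strand) and Actg1 (chr10:106121022-106121051, minus strand), the box is shown with 10 bases on each side.
Srf: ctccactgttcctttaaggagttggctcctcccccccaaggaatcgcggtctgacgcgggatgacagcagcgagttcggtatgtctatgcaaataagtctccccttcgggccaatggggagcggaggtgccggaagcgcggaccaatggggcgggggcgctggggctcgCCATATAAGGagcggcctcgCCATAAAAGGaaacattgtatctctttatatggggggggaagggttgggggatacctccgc
Egr1: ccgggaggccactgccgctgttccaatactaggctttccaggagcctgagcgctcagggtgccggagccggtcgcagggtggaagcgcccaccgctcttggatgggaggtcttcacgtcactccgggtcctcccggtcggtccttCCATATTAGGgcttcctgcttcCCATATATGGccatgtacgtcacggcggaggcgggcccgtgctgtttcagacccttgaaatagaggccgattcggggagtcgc
Egr2: gttcctcagtCCATATATGGgcagcgacgt
Zfp36: ccgggccgccCCATAAAAGGcgaaagctcc
Actg1: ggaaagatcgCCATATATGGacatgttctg
The boxes of Srf began 81 and 61 bases before its start, and those of Egr1 began 105 and 83 bases before. The box began 83 bases before the start in Egr2, 32 in Zfp36 and 90 in Actg1.

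The search covered 300 bases around each start, 250 before and 50 after, on both strands. Of the 7 members, all had an entry in the RefSeq gene table and 6 had such a window, with Myocd as the exception. Srf, on chromosome 9, was the only one of these 6 with a CArG box, and 1.77% of the 27457 gene symbols with a window had one. The ETS core CCGGAA, read on either strand, lay in the windows of 3 members, Srf (121 bases before the start), Elk4 on chromosome 13 (59 bases) and Mkl2 on chromosome 10 (155 bases), against 16.5% of all symbols. Neither motif was found for Elk1 on the X chromosome or for Elk3 and Mkl1 on chromosome 7. Among the gene lists used below, 3 of 10 early SRF targets with a window held a CArG box, as did 2 of 11 cytoskeletal targets (Actg1 and Fhl2) and 0 of 10 contractile targets. Only boxes of the exact form CC, then 6 bases of A or T, then GG were counted. A box with any other base inside it was not counted, in the window or elsewhere. A match is a description of the letters and not evidence of binding, and contractile genes are known to carry boxes outside so short a window. The 0 of 10 therefore does not show that contractile genes lack boxes near their start.

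The 9 libraries held 13114273 to 15504240 counts, so that 1 CPM (counts scaled to a common library size by TMM) corresponded to 12.1 to 17.9 counts. Smooth muscle content, as read from its markers, varied widely within each group. The smooth muscle score, the mean log2 CPM of 8 markers, was 9.53, 11.39 and 11.41 in the normal libraries, 10.54, 11.29 and 9.55 at 1 h and 11.93, 11.39 and 10.50 at 4 h. All smooth muscle markers were tested, and their summed level was 10556 to 45142 CPM in normal artery, 11902 to 43127 at 1 h and 22537 to 64620 at 4 h. The sum of 14 sympathetic nerve markers ran from 36.3 to 590.3 CPM in normal artery, from 889 to 7934 at 1 h and from 48.6 to 7783 at 4 h.

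Srf transcripts did not separate normal from ischemic artery. Srf stood at 76.3, 159 and 199.9 CPM in normal replicates 1, 2 and 3, at 92.0, 159 and 71.5 CPM after 1 h and at 165, 145 and 92.4 CPM after 4 h. Normal replicate 1, 1 h replicates 1 and 3 and 4 h replicate 3 formed the low end, and the groups overlapped fully. The mean was 145 ± 63.0 CPM in normal artery, 107 ± 45.7 CPM at 1 h and 134 ± 37.6 CPM at 4 h (SD, n = 3 each). On the log2 scale the difference from normal was -0.43 at 1 h (95% interval -1.41 to 0.54, edgeR adjusted p = 0.590) and -0.11 at 4 h (-1.09 to 0.86, adjusted p = 0.935). The order of the means was normal, 4 h, 1 h, with no neighbours apart beyond their spread.

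**Figure D1:**
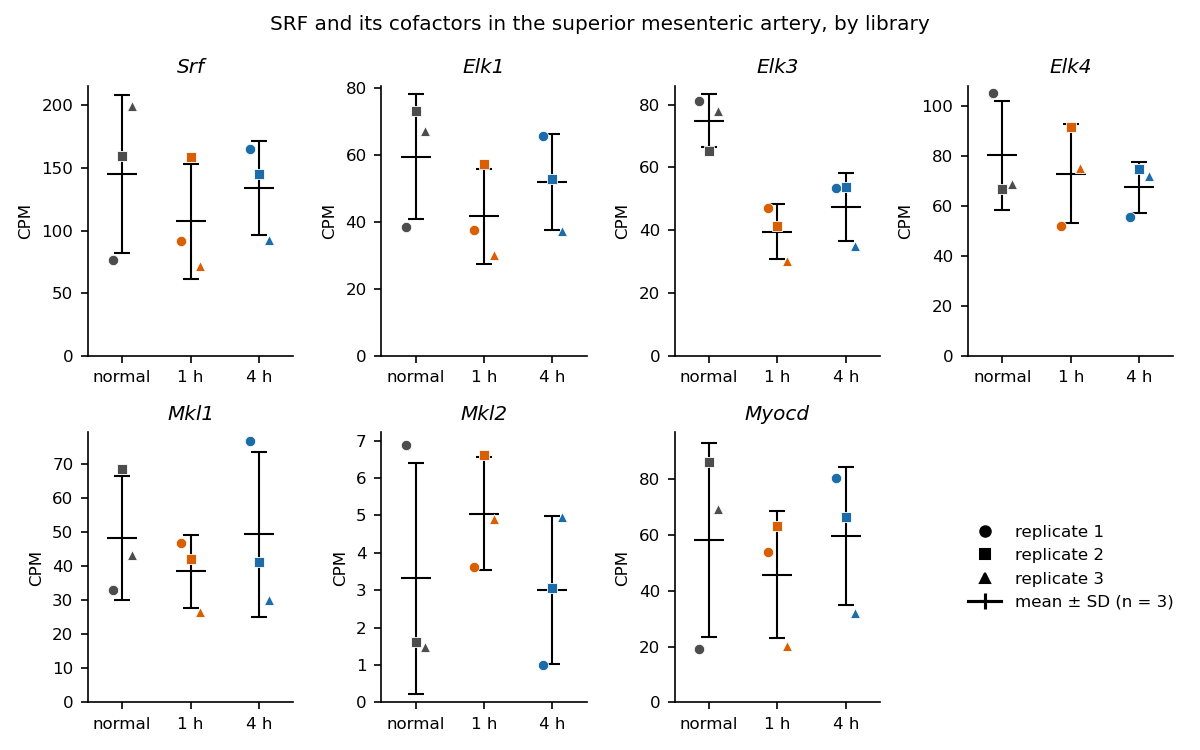
Level of each member in CPM (vertical axes, linear and starting at 0) in normal artery and after 1 h and 4 h of ischemia. Each point is 1 library, with the replicate number as its shape, and the lines are the mean ± SD of 3 libraries. Elk3 is the only member whose 6 ischemic libraries (30.2 to 53.7 CPM) all lie under its 3 normal libraries (65.2 to 81.3 CPM).

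Among the ternary complex factors, Elk3 was the member that stood apart. Elk3, also known as Net, is a ternary complex factor with repressor activity that is prominent in endothelium and is turned into an activator by growth signals. It stood at 81.3, 65.2 and 77.9 CPM in normal artery, at 47.2, 41.3 and 30.2 CPM after 1 h and at 53.5, 53.7 and 35.1 CPM after 4 h. Every ischemic library was below every normal one, and the libraries of both times overlapped each other. The mean was 74.8 ± 8.46 CPM in normal artery, 39.6 ± 8.66 CPM at 1 h (52.9% of normal) and 47.4 ± 10.7 CPM at 4 h (63.4%).

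The difference of Elk3 from normal was -0.92 on the log2 scale at 1 h (SE 0.24, 95% interval -1.46 to -0.38, unadjusted p = 0.00433) and did not pass the threshold over all genes in edgeR (adjusted p = 0.210). At 4 h it was -0.66 (SE 0.24, interval -1.20 to -0.12, unadjusted p = 0.0227, adjusted p = 0.310 in edgeR). DESeq2, a second count model, gave -0.90 at 1 h with an adjusted p of 0.0273, past the threshold, and -0.64 at 4 h with an adjusted p of 0.190. No alternative turned the sign. At 1 h the value ran from -1.07 to -0.72, and at 4 h it ran from -0.87 to -0.43, with the value nearest 0 when the library lowest in smooth muscle markers of each group was left out. That alternative was chosen after the data were seen.

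Elk1, the ternary complex factor best known as an ERK substrate, stood at 38.5, 73.1 and 67.2 CPM in normal artery, at 37.5, 57.4 and 30.1 CPM after 1 h and at 65.8, 52.9 and 37.2 CPM after 4 h. The groups overlapped, and the lowest library of each group was also one of those low in Srf. The log2 difference from normal was -0.52 at 1 h (interval -1.30 to 0.27, edgeR adjusted p = 0.420) and -0.20 at 4 h (-0.98 to 0.58, adjusted p = 0.838). Elk4, also known as SAP-1, stood at 105, 66.6 and 68.5 CPM in normal artery, at 52.0, 91.4 and 75.2 CPM after 1 h and at 55.6, 74.8 and 71.7 CPM after 4 h. The highest normal library and the highest 1 h library stood above the rest. Its log2 difference was -0.14 at 1 h (-0.75 to 0.48, edgeR adjusted p = 0.801) and -0.25 at 4 h (-0.87 to 0.37, adjusted p = 0.720), the narrowest intervals of the members besides Elk3.

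Myocd, the smooth and cardiac muscle coactivator that is active without a stimulus, stood at 19.1, 86.0 and 69.2 CPM in normal artery, at 53.8, 63.2 and 20.03 CPM after 1 h and at 80.2, 66.2 and 32.0 CPM after 4 h. Its highest library held 4.51 times the level of its lowest, and both extremes were normal arteries. The log2 difference from normal was -0.35 at 1 h (interval -1.76 to 1.07, edgeR adjusted p = 0.780) and 0.034 at 4 h (-1.38 to 1.45, adjusted p = 0.990).

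Mkl1, which is held in the cytoplasm by monomeric actin until the actin polymerises, stood at 33.0, 68.6 and 43.3 CPM in normal artery, at 46.9, 42.0 and 26.6 CPM after 1 h and at 76.8, 41.3 and 30.2 CPM after 4 h. Its range at 4 h was wider than, and took in, that of normal artery. Its log2 difference was -0.33 at 1 h (-1.27 to 0.61, edgeR adjusted p = 0.681) and 0.033 at 4 h (-0.91 to 0.97, adjusted p = 0.984). Mkl2, regulated by actin in the same way, was read from 12 to 123 counts per library, the shallowest measurement among the members. It stood at 6.89, 1.61 and 1.48 CPM in normal artery, at 3.61, 6.62 and 4.91 CPM after 1 h and at 0.99, 3.07 and 4.95 CPM after 4 h. A single normal library held the highest value of all, and the intervals were the widest, from -1.09 to 2.28 around 0.60 at 1 h (edgeR adjusted p = 0.675) and from -1.84 to 1.54 around -0.15 at 4 h (adjusted p = 0.953).

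**Figure D2:**
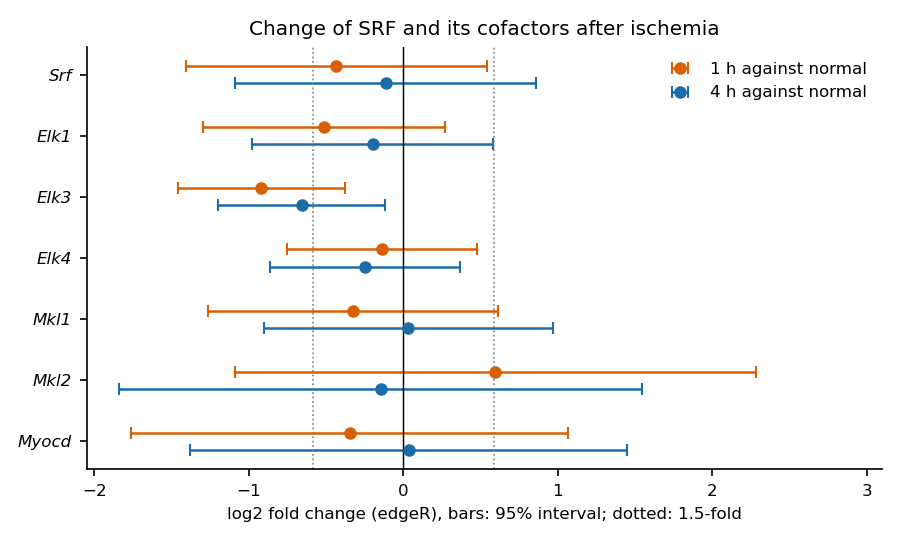
Log2 fold change of each member against normal artery (horizontal axis) after 1 h and 4 h of ischemia, from the edgeR fit of 9 libraries. Bars are unadjusted 95% intervals, and dotted lines mark a 1.5-fold change. Only the bars of Elk3 leave out 0, from -1.46 to -0.38 at 1 h and from -1.20 to -0.12 at 4 h.

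At 1 h, 0 of the 7 members were called by edgeR (adjusted p under 0.05 and fold over 1.5), against 0.0581% of all genes tested. Elk3 alone had an unadjusted p under 0.05, which 16.7% of all genes had at 1 h, and 8.67% had it with a lower level. Its 1 h and normal libraries did not overlap, as was so for 26.3% of all genes, and for 13.5% with the lower level at 1 h. At 4 h, 0 of the 7 were called, against 0.0904% of all genes. Elk3 again was the only one with an unadjusted p under 0.05, which 12.4% of all genes had and 7.35% had with a lower level. No overlap between 4 h and normal libraries was seen for 18.7% of all genes, and for 10.8% with the 4 h libraries on the low side. Both times lay under normal without overlap for 6.8% of all genes, so the separation of Elk3 is one that many transcripts shared. The median log2 difference of the members was -0.35 at 1 h and -0.15 at 4 h, beside -0.0076 and 0.027 for all genes tested. Both contrasts share the 3 normal libraries.

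Between 1 h and 4 h, 0 of the 7 members were called by edgeR, against 0.0% of all genes, and at an unadjusted p under 0.05 there were 0, beside 2.58% of all genes. No member had 4 h libraries apart from those at 1 h, as 6.24% of all genes had. DESeq2 called 0 members as well. The log2 differences at 4 h over 1 h ran from -0.74 for Mkl2 to 0.38 for Myocd, with adjusted p of 0.856 to 0.893. In the test of the 3 groups together, edgeR and DESeq2 called 0 members, against 0.0388% of all genes in edgeR. Elk3 had an unadjusted p of 0.0101 there (adjusted p = 0.289 in edgeR), below 0.05 as for 11.4% of all genes.

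The levels of Srf, Myocd, Elk1 and Mkl1 moved with the smooth muscle score of the library. Over the 9 libraries, log2 Srf and the smooth muscle score had a Pearson r of 0.93 (permutation p = 0.000367, adjusted 0.00257 over 14 relations) and a Spearman coefficient of 0.90 (permutation p = 0.00203, adjusted 0.0142). Without the 2 libraries farthest from the median score, normal replicate 1 and 1 h replicate 3, r was 0.87, and with each group centred on its mean it was 0.97. The markers include contractile genes that SRF and Myocd activate, so the score is not independent of their action.

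Myocd followed the same score with r = 0.96 (permutation p = 0.000248, adjusted 0.00257), Spearman coefficient = 0.90 (p = 0.00203, adjusted 0.0142), r = 0.84 without the 2 farthest libraries and r = 0.98 within groups. Elk1 followed it with r = 0.89 (permutation p = 0.00251, adjusted 0.00879), 0.88 without these libraries and 0.98 within groups, although its Spearman coefficient of 0.75 missed the threshold (p = 0.0255, adjusted 0.0726). Mkl1 had r = 0.80 (permutation p = 0.0117, adjusted 0.0328), 0.70 without them and 0.81 within groups, with a Spearman coefficient of 0.73 (p = 0.0311, adjusted 0.0726). Mkl2 ran the other way, with r = -0.73 (permutation p = 0.0288, adjusted 0.0576), Spearman coefficient = -0.87 (p = 0.00451, adjusted 0.021), -0.69 without the 2 libraries and -0.72 within groups. Elk3 had r = 0.25 (permutation p = 0.514, adjusted 0.554) and Elk4 r = -0.45 (p = 0.226, adjusted 0.316), neither past the threshold.

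With the score of 12 endothelial markers, Elk4 had r = 0.89 (permutation p = 0.00164, adjusted 0.00765), Spearman coefficient = 0.72 (adjusted p = 0.0738), 0.75 without normal replicate 1 and 4 h replicate 1, and 0.88 within groups. Mkl2 had r = 0.74 with that score (permutation p = 0.0173, adjusted 0.0404), a Spearman coefficient of 0.73 (adjusted p = 0.0726), 0.49 without those 2 libraries and 0.92 within groups, so over all libraries the relation rests in part on those 2. Elk3 had r = 0.21 (permutation p = 0.607, adjusted 0.607), and -0.10 within groups. Of the 12 endothelial markers 11 were tested. Their sum was 851 to 1941 CPM in normal artery, 805 to 1228 CPM at 1 h and 647 to 1035 CPM at 4 h, their median log2 difference was -0.44 at 1 h and -0.64 at 4 h, and 3 were lower at an unadjusted p under 0.05 at each time. With the endothelial score as a covariate, an alternative chosen after the data were seen, Elk3 stood at -0.93 at 1 h (edgeR adjusted p = 0.190) and -0.69 at 4 h (adjusted p = 0.388). With the smooth muscle score in its place it stood at -0.90 and -0.74.

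**Figure D3:**
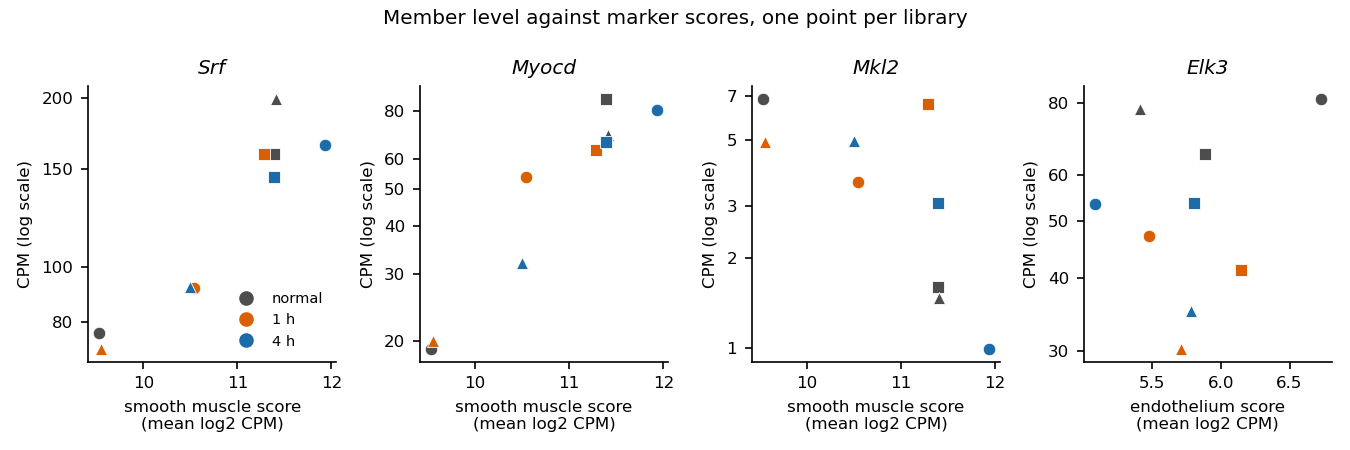
Level of Srf, Myocd and Mkl2 (CPM, log scale) against the smooth muscle score, and of Elk3 against the endothelium score (mean log2 CPM of the markers), 1 point per library, coloured by group and shaped by replicate number as in the plot by library. Over all 9 libraries Srf and Myocd climb with the score (r = 0.93 and 0.96), and Mkl2 goes down (r = -0.73). In normal artery Myocd is at 86.0 CPM in replicate 2 (score 11.39) and at 69.2 CPM in replicate 3 (score 11.41). The 3 normal libraries of Elk3 lie above the 6 ischemic ones in CPM. The endothelium scores are 5.41 to 6.73 in the normal libraries and 5.08 to 6.15 in the ischemic ones.

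Ratios of counts within a library, which carry no scaling between libraries, showed how the partners stood against SRF. The log2 ratio of Elk3 to Srf was -0.85 ± 0.82 in normal artery, -1.38 ± 0.51 at 1 h (exact permutation p = 0.6) and -1.49 ± 0.12 at 4 h (exact permutation p = 0.1, SD, n = 3 each). At 4 h every library lay under every normal one, but normal replicates 1, 2 and 3 stood at 0.091, -1.29 and -1.36, and without replicate 1 the 4 h difference went from -0.63 to -0.16. The value 0.1 is the smallest two-sided p that 3 against 3 can give. The log2 ratio of Elk3 to Elk4 was -0.072 ± 0.28 in normal artery, -0.87 ± 0.64 at 1 h and -0.52 ± 0.49 at 4 h (exact permutation p = 0.2 at both). Elk3 to Elk1 was 0.38 ± 0.64, -0.047 ± 0.41 and -0.12 ± 0.16 in the same order, with overlap (exact permutation p = 0.5 and 0.3). Myocd to Srf, in contrast, was -1.47 ± 0.56, -1.31 ± 0.53 and -1.23 ± 0.26 in the same order (exact permutation p = 0.7 and 0.6). Elk1 to Srf was the tightest of the ratios to Srf, at -1.23 ± 0.31, -1.34 ± 0.12 and -1.36 ± 0.080. Without normal replicate 1, the Myocd to Srf difference from normal turned from 0.16 to -0.10 at 1 h and from 0.24 to -0.024 at 4 h. Over the 12 ratio tests no p could pass 0.05.

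Early targets of SRF and its ternary complex factors were looked at next. Of the 13 genes of this list 12 were tested, all but Egr4. At 1 h, edgeR called 0 of the 12, against 0.0581% of all genes. DESeq2 called 8 of them, against 702 of all 15482 genes. In edgeR 9 were higher at an unadjusted p under 0.05, as were 7.98% of all genes, and 0 were lower. Normal and 1 h libraries were apart, with 1 h above, for 9 of the 12 and for 12.8% of all genes. At 4 h, 8 of the 12 were higher at an unadjusted p under 0.05, against 5.07% of all genes. There edgeR called 1, Nr4a1, against 0.0904% of all genes. The libraries were apart on the high side for 8 of the 12 and for 7.93% of all genes. The median log2 difference was 2.02 at 1 h and 1.61 at 4 h. Other pathways also drive these genes, and the list was written with the results known, so its direction is not independent evidence.

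Nr4a1, an orphan nuclear receptor of the early response, stood at 112, 76.3 and 95.1 CPM in normal artery, at 649.6, 905 and 396 CPM after 1 h and at 1765, 1623 and 776 CPM after 4 h. Its 1 h and 4 h libraries overlapped each other, and at each time all lay above the normal ones. The same was so for 12.8% of all genes at 1 h and 7.93% at 4 h. Nr4a1 rose at 4 h by 3.88 on the log2 scale (SE 0.46, edgeR adjusted p = 0.0316), and its 1 h difference was 2.78 (SE 0.43, adjusted p = 0.117). The call at 4 h was lost in edgeR when any one of normal replicate 1, 2 or 3, 1 h replicate 1 or 3, or 4 h replicate 1 or 2 was left out, each leaving 0 early targets called.

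Egr2, a zinc finger factor whose CArG box is shown above, stood at 1.18, 0.66 and 1.48 CPM in normal artery, at 4.55, 14.6 and 11.5 CPM after 1 h and at 3.06, 2.90 and 4.03 CPM after 4 h. Its 1 h difference was 3.20 (SE 0.51, edgeR adjusted p = 0.117). Ier2, a nuclear early response protein, averaged 43.1 ± 11.4 CPM in normal artery, 106 ± 27.2 CPM at 1 h and 88.8 ± 10.5 CPM at 4 h (log2 differences 1.30 and 1.04, edgeR adjusted p = 0.154 and 0.169). Btg2, an antiproliferative early gene, averaged 132 ± 57.9 CPM in normal artery and 481 ± 143 CPM at 4 h (1.87, SE 0.47, edgeR adjusted p = 0.169).

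The genes of the remaining panels in the plot of early targets were chosen after their values were seen. Egr1, with a pair of CArG boxes, stood at 13.05, 19.05 and 91.0 CPM in normal artery, at 207, 401 and 204 CPM after 1 h and at 173, 138 and 122 CPM after 4 h (log2 differences 2.72 and 1.82, edgeR adjusted p = 0.211 and 0.338). Zfp36, which encodes the mRNA decay factor tristetraprolin, averaged 176 ± 102 CPM, 761 ± 294 CPM and 649 ± 159 CPM in the order normal, 1 h and 4 h (edgeR adjusted p = 0.188 and 0.177). Fos, the classical SRF target, stood at 5.21, 15.2 and 278 CPM in normal artery, at 135, 161 and 103 CPM after 1 h and at 132, 266 and 91.1 CPM after 4 h. Normal replicate 3 held the highest Fos level of all 9 libraries, and the log2 differences were 0.42 and 0.71 (edgeR adjusted p = 0.865 and 0.831). Arc, an early gene best known in neurons, stood at 2.52, 2.55 and 5.54 CPM in normal artery, at 10.03, 58.6 and 17.6 CPM after 1 h and at 6.78, 9.12 and 4.23 CPM after 4 h, where it overlapped normal artery.

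The sum of the sympathetic nerve markers, given above, was higher in each 1 h library than in each normal one. With that score as a covariate, 9 early targets at 1 h and 8 at 4 h were higher at an unadjusted p under 0.05 in edgeR. The median differences of the list were 2.25 and 1.58. Because the markers separate 1 h from normal artery, this fit cannot tell their part from that of ischemia. With the library lowest in smooth muscle markers of each group left out, the count was 8 at 1 h and 4 at 4 h. Without normal replicate 2, and likewise without 4 h replicate 2, the count at 4 h was 5.

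**Figure D4:**
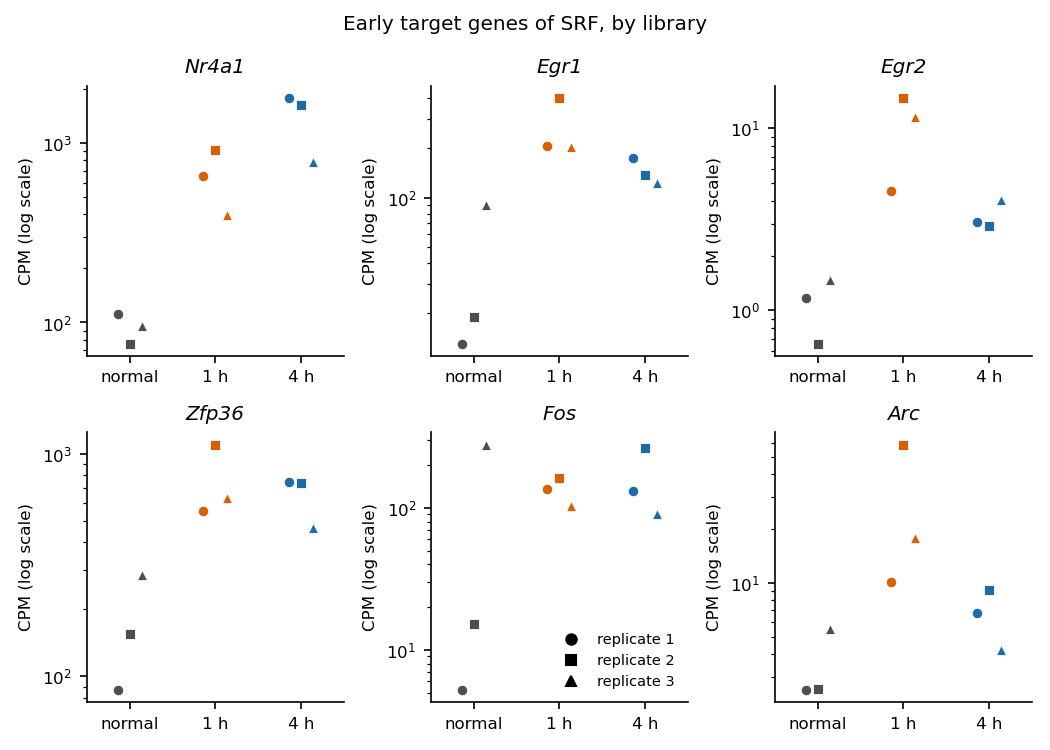
Level of 6 early SRF target genes (CPM, log scale) in normal artery and after 1 h and 4 h of ischemia, 1 point per library with the replicate number as its shape. Nr4a1 lies between 76.3 and 112 CPM in normal artery and between 776 and 1765 CPM at 4 h, and normal replicate 3 is high for Fos at 278 CPM.

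Of 14 cytoskeletal targets of the MRTF type 13 were tested, all but Myh9, and at both times 0 were called and 0 had an unadjusted p under 0.05 in edgeR. Their median log2 difference was -0.33 at 1 h and 0.38 at 4 h, and under alternatives it ran from -0.71 to 0.48 and from -0.028 to 0.61. Actg1, cytoplasmic gamma actin, had the smallest p of the list, with 160.4, 229.8 and 285 CPM in normal artery, 267, 307 and 290.2 CPM after 1 h and 369, 318 and 289 CPM after 4 h. It was the 1 gene of the 13 tested whose 4 h libraries all lay above normal, a share near the 7.93% of all genes. Its log2 differences were 0.36 and 0.53 (edgeR adjusted p = 0.429 and 0.420). Ctgf, a matricellular target, averaged 649 ± 442 CPM in normal artery and 1397 ± 755 CPM at 4 h (1.11, SE 0.69, adjusted p = 0.547 in edgeR).

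All 13 contractile targets of the myocardin type were tested, and again edgeR called 0 and gave 0 an unadjusted p under 0.05 at either time. The median was -0.32 at 1 h and 0.39 at 4 h, with 1 of 13 genes above normal at 1 h and 13 of 13 at 4 h. Of all 15482 genes, 7655 were above normal at 1 h and 8097 at 4 h. Acta2, Tagln, Cnn1, Myh11, Smtn and Des are also among the 8 smooth muscle markers, of which 0 were above normal at 1 h and 8 at 4 h. The signs of the list are therefore not independent of the smooth muscle score. Both medians crossed 0 under alternatives, from -0.85 to 0.45 at 1 h and from -0.057 to 0.76 at 4 h. Desmin (Des), the muscle intermediate filament, stood at 754, 3715 and 4039 CPM in normal artery, at 1967, 5016 and 1329 CPM after 1 h and at 7007, 5453 and 2647 CPM after 4 h. Lmod1, an actin nucleator of smooth muscle, stood at 318, 1494 and 1403 CPM in normal artery, at 599, 1138 and 287 CPM after 1 h and at 1869.7, 1606 and 748 CPM after 4 h. In each group the library lowest in both genes was also the lowest in Srf and in Myocd.

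Upstream of the ternary complex factors, 13 genes of the ERK route were tested and edgeR called 0. At 1 h 2 were higher at an unadjusted p under 0.05, as were 7.98% of all genes, and 0 lower, and at 4 h there were 0 in either direction, beside 5.07% of all genes higher and 7.35% lower. Braf, a kinase at the head of the cascade, stood at 37.1, 36.8 and 34.8 CPM in normal artery, at 43.7, 52.1 and 49.9 CPM after 1 h and at 41.7, 42.3 and 47.8 CPM after 4 h. All 6 ischemic libraries lay above the normal ones, with log2 differences of 0.42 (SE 0.14) and 0.28 (SE 0.14) and edgeR adjusted p of 0.258 and 0.471. Of all genes, 12.8% lay above normal without overlap at 1 h and 7.93% at 4 h. The share that did so at both times was not counted. Map2k1, which encodes the kinase that phosphorylates ERK, stood at 42.6, 45.3 and 55.0 CPM in normal artery, at 111, 57.0 and 106 CPM after 1 h and at 56.9, 49.7 and 104 CPM after 4 h (0.94 and 0.56, edgeR adjusted p = 0.272 and 0.542). Its 4 h libraries overlapped the normal ones. Its 3 high libraries, 1 h replicates 1 and 3 and 4 h replicate 3, were those with the highest sums of sympathetic nerve markers (7934, 7897 and 7783 CPM), whose part in the difference was not tested. Rps6ka3 had the smallest p of the route at 4 h and was lower. It averaged 72.3 ± 15.7 CPM in normal artery and 49.8 ± 5.43 CPM at 4 h (-0.54, edgeR adjusted p = 0.437). Its 4 h libraries lay under the normal ones without overlap, as for 10.8% of all genes. The medians of the route were 0.14 and 0.062.

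Upstream of Mkl1 and Mkl2, 17 genes of the actin route were tested and edgeR called 0, with 3 higher at an unadjusted p under 0.05 at each time, beside 7.98% of all genes at 1 h and 5.07% at 4 h, and 0 lower. At 1 h these were Limk1, the kinase that inactivates cofilin, Phactr1, which binds monomeric actin, and Abra (STARS), an actin-binding activator of MRTF signalling. Limk1 stood at 19.99, 4.598 and 10.7 CPM in normal artery, at 61.0, 35.8 and 74.0 CPM after 1 h and at 19.3, 20.5 and 61.7 CPM after 4 h (log2 differences 2.27 and 1.52, edgeR adjusted p = 0.224 and 0.377). Phactr1 stood at 3.30, 3.43 and 1.48 CPM in normal artery, at 18.5, 5.01 and 18.6 CPM after 1 h and at 2.07, 3.23 and 19.2 CPM after 4 h. Limk1 and Phactr1 were highest in the same 3 libraries as Map2k1, those with the highest sums of nerve markers, and the part of these markers in the differences was not tested. Abra stood at 0.67, 6.71 and 9.82 CPM in normal artery, at 10.6, 34.8 and 38.4 CPM after 1 h and at 43.6, 42.9 and 11.4 CPM after 4 h (2.29 and 2.51, edgeR adjusted p = 0.288 and 0.327). At 4 h Rhob, an early response small GTPase, joined Abra and Limk1 with 502 ± 210 CPM in normal artery and 1059 ± 247 CPM (1.08, SE 0.40, edgeR adjusted p = 0.331). Limk2 had the smallest p of the lower genes at 4 h, with overlap. It averaged 26.1 ± 7.97 CPM in normal artery and 17.6 ± 3.58 CPM at 4 h (-0.57, edgeR adjusted p = 0.420). The medians of the actin route were 0.24 and 0.29.

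Of 12 other partners and antagonists of SRF or myocardin, edgeR called 0 and 1 was higher at an unadjusted p under 0.05 at each time, a share near that of all genes (7.98% at 1 h and 5.07% at 4 h). It was Klf4, a factor known to repress Myocd and contractile genes. Klf4 stood at 65.2, 73.9 and 45.1 CPM in normal artery, at 113, 142 and 94.7 CPM after 1 h and at 165, 201 and 147 CPM after 4 h. The groups followed each other upward with no overlap. Of all genes, 12.8% lay above normal without overlap at 1 h and 7.93% at 4 h. The 1 h and 4 h libraries were apart, in either direction, for 6.24% of all genes. The share that climbed without overlap at both steps was not counted. The log2 differences of Klf4 from normal were 0.92 (SE 0.25) and 1.48 (SE 0.25) with edgeR adjusted p of 0.216 and 0.0712. Hdac5 was lower at 1 h, with 127.5 ± 31.3 CPM in normal artery and 75.3 ± 14.8 CPM at 1 h (-0.76, edgeR adjusted p = 0.303). Its 1 h libraries lay under the normal ones without overlap, as for 13.5% of all genes. The list medians were -0.11 and 0.018.

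The lower level of Elk3 was set beside that of the 15 other ETS factors, of which edgeR called 0. At an unadjusted p under 0.05, 1 was higher and 1 lower at 1 h, and 1 was higher and 2 were lower at 4 h, beside 7.98%, 8.67%, 5.07% and 7.35% of all genes. Erg, an endothelial ETS factor that is also one of the endothelial markers, averaged 61.9 ± 12.5 CPM in normal artery, 40.6 ± 6.35 CPM at 1 h and 43.2 ± 8.41 CPM at 4 h (log2 differences -0.61 and -0.52, edgeR adjusted p = 0.275 and 0.401). Every ischemic library of Erg was below every normal one, as for Elk3 and for 6.8% of all genes. Spi1, a myeloid factor, was the other one lower at an unadjusted p under 0.05, at 4 h and from 2.73 ± 2.39 CPM in normal artery (-2.54, edgeR adjusted p = 0.291). Its normal replicates 1, 2 and 3 stood at 5.49, 1.46 and 1.26 CPM. At 4 h Spi1 was near the floor, at 0.083, 0.50 and 0.79 CPM, read from 1, 6 and 12 counts. Ets2 was the one higher, with 39.3 ± 6.45 CPM in normal artery, 73.8 ± 24.1 CPM at 1 h and 63.2 ± 9.49 CPM at 4 h (0.91 and 0.69, edgeR adjusted p = 0.232 and 0.353). At 4 h, 3 of the 15 lay under normal artery without overlap (Erg, Spi1 and Erf), beside 10.8% of all genes. Erf averaged 52.0 ± 11.7 CPM in normal artery and 38.1 ± 1.99 CPM at 4 h (-0.45, edgeR adjusted p = 0.440). The medians of the ETS list were -0.098 and -0.31. Of the 4 Mef2 genes, MADS-box relatives of SRF, edgeR called 0, and Mef2d (0.98) and Mef2a (0.50) were higher at an unadjusted p under 0.05 at 4 h, as were 5.07% of all genes (edgeR adjusted p = 0.322 and 0.335). Mef2c averaged 99.0 ± 24.6 CPM in normal artery and 55.4 ± 18.0 CPM at 1 h (-0.84, edgeR adjusted p = 0.319). Its 1 h libraries lay under the normal ones without overlap, as for 13.5% of all genes.

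**Figure D5:**
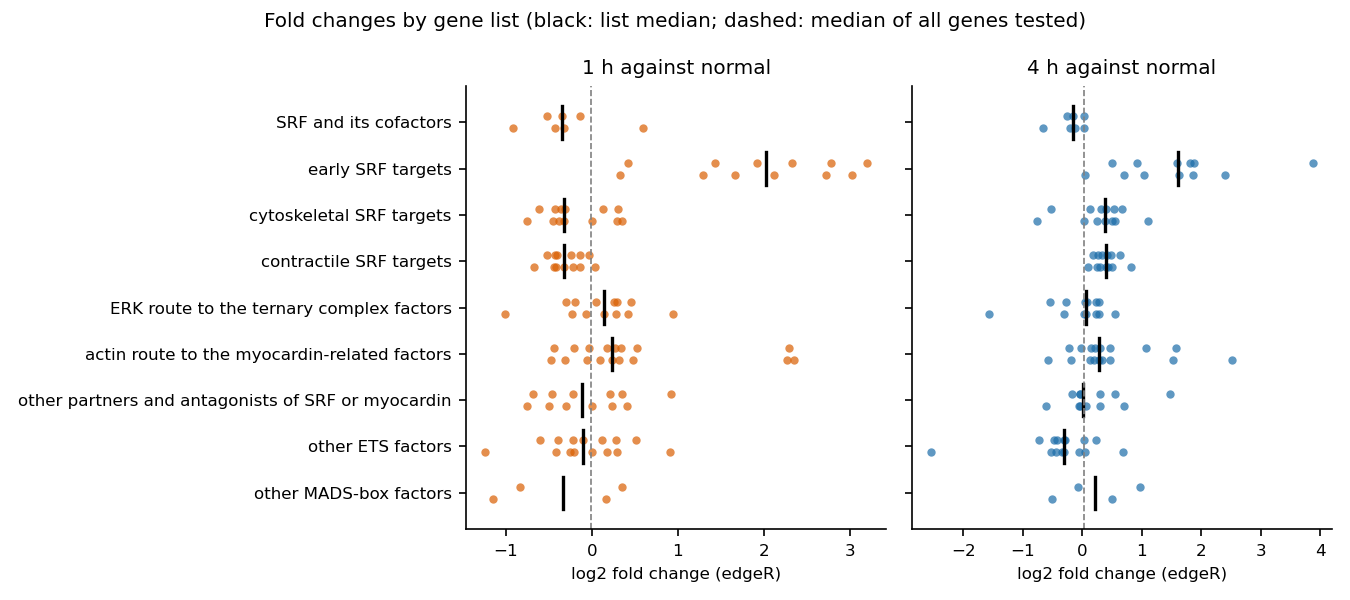
Log2 fold change of each tested gene (points) of SRF and its cofactors and of the 8 other lists, after 1 h (left) and 4 h (right) of ischemia against normal artery, with the median of each list as a black line and that of all genes tested as a dashed line. The early targets lie to the right, with medians of 2.02 and 1.61, and the median of the members is -0.35 and -0.15.

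The transcripts most like each member over the 9 libraries were taken from 10445 genes (10446 for Mkl2) with a mean of at least 5 CPM, by Pearson r of log2 CPM. All points of a comparison share the library's makeup, and with so many genes over 9 points a high r is reached readily. For Srf they were Tmem47 (0.99), Anxa4 (0.99) and Efhd1 (0.98), and for Myocd they were Flna (0.98), Ppp1r12a (0.97) and Arhgap6 (0.97). Flna, which encodes the actin crosslinker filamin A, is one of the cytoskeletal targets, and Ppp1r12a encodes the targeting subunit of myosin phosphatase. For Elk1 they were Macf1, Nkd1 and Tln1 (0.98 each), of which Tln1 encodes talin. For Elk3 they were Rmi1 (0.99), Smim1 (0.98) and Chst14 (0.98), and for Elk4 they were Itch (0.99), Il6st (0.99) and Dock5 (0.98). For Mkl1 they were Atf6b (0.98), Pomgnt1 (0.97) and Carm1 (0.96), and for Mkl2 they were Nf1, Dip2b and Sntb1 (0.98 each).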

How the data were processed

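SMA RNA (Trizol, RIN over 8 per the labels) of 9 rats was sequenced on a HiSeq X instrument. The deposited table holds raw counts per gene symbol, which the authors made from reads aligned with HISAT2 per the submitters' processing notes. The aligner's version, the genome build, the annotation, the counting tool and its strand setting are not given in the sources used here, so that overlapping genes could share reads. The members and lists were chosen with earlier results of these data known. Of 37203 symbols, 13156 were 0 in all libraries and 15482 passed filterByExpr. edgeR 4.0.16 in R 4.3.3 (TMM, glmQLFit, glmQLFTest, all 9 libraries, group only) tested each contrast, with Benjamini-Hochberg adjustment over all 15482 genes and calls at adjusted p under 0.05 and fold over 1.5. The SE is the absolute log2 change divided by the root of F. Log2 CPM used a prior count of 2. Permutation tests of single values were exact and two-sided. Scores were mean log2 CPM of the markers. In each list the genes named came from up to 3 per direction and contrast with the smallest p, plus those called. Not all of these are named. Levels were not compared between genes, since transcript lengths were not used here. Replicates are separate rats per the series text. No pair of libraries agreed within sampling noise (lowest chi-square per degree of freedom 29.85), and the common biological coefficient of variation was 51.63%. The edgeR step was tested on simulated data. Alternatives were DESeq2 1.42.0, other scaling, no filter, only the 2 groups compared, score covariates, a replicate block and leaving out libraries. One pathway gene is not reported here and was left out of its list.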

Additional observations from a re-analysis of the deposited data

How the results depend on the processing

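Over 19 alternatives the count of members called was 0 at 4 h and in the 4 h against 1 h comparison, and at 1 h it was 0 except with DESeq2, where it was 1 (Elk3). Over all genes edgeR called 9 at 1 h, 14 at 4 h and 6 over the 3 groups, where DESeq2 called 702, 606 and 669 and the other alternatives ran from 0 to 31, from 1 to 111 and from 0 to 39. Early targets called at 1 h, 0 in edgeR, were 8 with DESeq2 and 2 with the smooth muscle score as a covariate. Early targets called at 4 h, 1 in edgeR, were 4 with DESeq2, 2 with the smooth muscle score, and 0 with the endothelium score, with only the 2 groups compared and with the replicate block, and ran from 0 to 1 with 1 library left out. Those higher at an unadjusted p at 4 h, 8 in edgeR, were 4 without the lowest smooth muscle library of each group (normal 1, 1 h 3, 4 h 3) and ran from 5 to 9 with 1 library left out, with 5 without normal replicate 2 or 4 h replicate 2. At 1 h that count ran from 8 to 11.

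Elk3 kept its sign under all alternatives, and at 4 h its unadjusted p was above 0.05 without normal replicate 1 or 3, without 4 h replicate 3 and without the lowest smooth muscle libraries. The signs of members that were not called turned as follows, on the log2 scale. With the nerve score as a covariate, Srf was 0.032, Mkl1 0.32 and Myocd 0.52 at 1 h, and at 4 h against 1 h Srf was -0.16, Elk1 -0.15, Mkl1 -0.27 and Myocd -0.45. With the smooth muscle score, Myocd was 0.084 at 1 h, Mkl1 was -0.27, Mkl2 0.40 and Myocd -0.33 at 4 h, and at 4 h against 1 h Srf was -0.17, Elk1 -0.083, Mkl1 -0.12 and Myocd -0.41. With the endothelium score, Elk4 was 0.0016 at 1 h, 0.038 at 4 h and 0.036 at 4 h against 1 h, and at 4 h Mkl1 was -0.31, Mkl2 0.86 and Myocd -0.27. Without the lowest smooth muscle libraries, Elk4 was 0.061 at 1 h, and at 4 h Mkl2 was 0.38 and Myocd -0.094. With library size only, Mkl1 was -0.19 and Myocd -0.15 at 4 h, where the median of all genes was -0.15. With 1 library left out, the ranges that crossed 0 were -0.33 to 0.11 for Elk4 and -0.77 to 0.0062 for Myocd at 1 h, -0.42 to 0.19 for Srf, -0.46 to 0.38 for Mkl1, -0.72 to 0.96 for Mkl2 and -0.39 to 0.41 for Myocd at 4 h, and -0.30 to 0.085 for Elk4 and -0.13 to 0.62 for Mkl1 at 4 h against 1 h. The cause was not tested.

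Replicate numbers did not pair the libraries. Deviations from the group means correlated from -0.65 to 0.66 over 9 same-numbered pairs, 4 of them over 0.1, and 4 of 9 libraries correlated best with their own number. With the replicate block, 7 genes were called at 1 h and 7 at 4 h, 0 of the members, Elk3 was -0.95 (adjusted p = 0.234) and -0.69 (adjusted p = 0.341), and at 4 h Mkl1 was -0.046 and Myocd -0.028. The covariates of smooth muscle and endothelium and the removal of the lowest smooth muscle libraries were chosen after seeing the data. With 3 libraries a group, the 95% intervals of Srf and Myocd include changes beyond 1.5-fold in both directions at 4 h, so changes of that size are not excluded.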
